A study of Mus musculus with 9 samples.

Results

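The genes described here encode the machinery by which the T cell receptor (TCR) signals, 43 genes from the CD3 chains at the cell surface to the NFAT transcription factors and the enzymes that restrain the cascade. They were chosen by name, with earlier results of these data known. All 43 had at least 1 probe set that the platform annotation gives to a single gene, out of 18161 such genes on the array. Each gene was read from its probe set with the highest mean over the arrays (98 probe sets in all, several for 28 genes and 1 for 15). Expression was measured in sorted mouse cells on 9 Affymetrix arrays, 3 labelled control, 3 labelled abnormal non-malignant and 3 labelled NIC Tumor, from a study of how NOTCH1 overexpression leads to T-ALL, a leukemia of T cell precursors, and of its effects short of cancer. The labels give no strain, age, allele, promoter or transgene for any group. The meaning of NIC, which cells were sorted, and whether each array stands for its own animal are not stated either. The p-values therefore measure only the spread between these samples, which may be technical. Values are on a log2 scale, so that a difference of 1 is a 2-fold change, and levels are compared between arrays, not between genes. In bulk RNA, fewer cells of a type and less RNA per cell cannot be told apart.

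The TCR itself has no enzyme activity and signals through the CD3 chains and the zeta chain, which is encoded by Cd247. Src family kinases such as Fyn phosphorylate the tyrosine motifs of these chains, Zap70 docks there, and it phosphorylates the adaptors Lat and SLP-76 (Lcp2). These assemble the phospholipase PLC-gamma1 and exchange factors, which open the Ras, protein kinase C with NF-kappaB, calcium with NFAT, and actin branches. In the thymus the pathway serves the pre-TCR checkpoint first and then positive and negative selection, and phosphatases, diacylglycerol kinases and Cbl ubiquitin ligases set its threshold.

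Promoter sequence is shown for the genes of the CD3 and zeta chains, whose values parted in the tumors, and for Rasgrp1 and Fyn, the member with the largest fall and the only one that rose there. Each sequence is the 250 bases before the annotated start, 5′ to 3′ on the strand of the gene, from RefSeq (GRCm38.p6). The windows are chr9:45009612-45009861 (minus strand) for Cd3e, chr9:44981536-44981785 (plus strand) for Cd3d, chr9:44980432-44980681 (minus strand) for Cd3g, chr1:165788431-165788680 (plus strand) for Cd247, chr2:117342878-117343127 (minus strand) for Rasgrp1 and chr10:39369549-39369798 (plus strand) for Fyn. Capitals mark matches, on either strand, to TGGGAA (the core bound by RBPJ, the DNA-binding partner of Notch), CAGNTG (an E-box), AGATAA (a site of GATA factors) or TGTGGT (a site of RUNX factors), and no matches overlap.
Cd3e: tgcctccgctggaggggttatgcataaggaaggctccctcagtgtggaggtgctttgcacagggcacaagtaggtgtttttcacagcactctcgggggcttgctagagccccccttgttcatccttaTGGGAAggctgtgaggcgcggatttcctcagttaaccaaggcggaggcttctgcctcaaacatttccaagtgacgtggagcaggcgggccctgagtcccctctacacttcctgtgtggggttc
Cd3d: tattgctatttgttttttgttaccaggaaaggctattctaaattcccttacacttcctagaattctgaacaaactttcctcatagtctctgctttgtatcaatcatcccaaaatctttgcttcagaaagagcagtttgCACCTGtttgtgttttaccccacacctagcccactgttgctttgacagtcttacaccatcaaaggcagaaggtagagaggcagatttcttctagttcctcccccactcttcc
Cd3g: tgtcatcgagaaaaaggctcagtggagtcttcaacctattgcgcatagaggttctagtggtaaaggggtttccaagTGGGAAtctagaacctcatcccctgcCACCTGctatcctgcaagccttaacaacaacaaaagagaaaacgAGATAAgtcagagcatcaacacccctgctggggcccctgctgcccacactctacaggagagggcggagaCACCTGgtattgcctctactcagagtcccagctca
Cd247: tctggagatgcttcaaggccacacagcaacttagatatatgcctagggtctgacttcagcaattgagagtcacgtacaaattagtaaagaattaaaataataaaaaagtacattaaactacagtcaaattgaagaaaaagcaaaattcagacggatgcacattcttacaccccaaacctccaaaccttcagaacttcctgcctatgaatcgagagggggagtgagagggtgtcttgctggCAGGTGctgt
Rasgrp1: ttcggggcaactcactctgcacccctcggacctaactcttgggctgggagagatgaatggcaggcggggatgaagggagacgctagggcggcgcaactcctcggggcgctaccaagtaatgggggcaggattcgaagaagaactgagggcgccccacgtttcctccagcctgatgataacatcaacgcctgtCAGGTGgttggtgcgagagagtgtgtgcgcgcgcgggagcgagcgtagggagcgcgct
Fyn: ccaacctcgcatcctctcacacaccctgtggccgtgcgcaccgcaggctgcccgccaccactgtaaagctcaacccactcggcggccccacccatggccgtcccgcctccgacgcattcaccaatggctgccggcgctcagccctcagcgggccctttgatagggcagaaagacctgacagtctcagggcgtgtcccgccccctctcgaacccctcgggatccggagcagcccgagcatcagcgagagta
Cd3e and Cd3g hold the RBPJ core, 123 to 118 and 174 to 169 bases before the start. The E-box is found in the windows of Cd3d (112 to 107 bases before the start), Cd3g (148 to 143 and 35 to 30), Cd247 (10 to 5) and Rasgrp1 (58 to 53), and the GATA letters in that of Cd3g (104 to 99). The Fyn window holds none of the 4 motifs. Among all 32536 such windows of the table, 21.6% hold the RBPJ core, 44.8% the E-box, 9.97% the GATA and 14% the RUNX letters. Among 49 windows of the 34 members that matched the table, the shares are 30.6%, 40.8%, 8.16% and 10.2%. A match to so few letters describes the sequence and is not a measured binding site.

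Some arrays stood apart from their group. Non-malignant arrays 2 and 3 were nearly the same, as their member values differed with an SD of 0.11 and 0 members were 2-fold apart, against an SD of 0.27 in the next closest pair, controls 1 and 3. In the members, tumor array 1 differed from each non-malignant array with an SD of 0.59 to 0.61, less than from tumor 2 (0.74) or tumor 3 (0.68). The values of tumor array 3 were the least spread (SD 1.97, the others 2.12 to 2.19), and its bioB spike-in was the brightest (10.67, the others 7.22 to 9.05). The members varied most among the tumors, with a root mean square SD of 0.59 there, 0.31 in controls and 0.19 in non-malignant samples, against 0.49, 0.27 and 0.23 over all genes tested. On all 9 arrays every member was brighter than the 40th percentile of the probe sets, the limit for testing a gene.

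Most of the TCR signalling genes stood lower in the tumors, while in the abnormal non-malignant samples about as many stood above the controls as below. In the tumors 14 members fell against controls and 1, Fyn, rose, which makes 34.9% of the members called by limma, beside 15.7% of all 13288 genes tested. Of all genes 8.49% rose and 7.19% fell, and of the members 2.33% rose and 32.6% fell. The median log2 fold change of the members was −0.58, beside 0.06 over all genes. In 18 members every tumor lay below every control and in 4 every tumor lay above, beside 14.3% and 18.2% of all genes (32.5% in either direction). An unadjusted p under 0.05 was found in 24 members, beside 32.2% of all genes. The count of 15 called members became 9, 7 or 8 without control 1, 2 or 3 and 8 without tumor 2, and it was 28 without tumor 1.

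In the abnormal non-malignant samples 2 members rose against controls, Cd2 and Zap70, and none fell. This is 4.65% of the members, beside 3.53% of all genes (2.87% higher and 0.655% lower), and 4 members had an unadjusted p under 0.05, beside 13.3% of all genes. In 10 members every non-malignant array lay above every control and in 8 below, beside 17% and 9.16% of all genes (26.1% in either direction). The members' median was 0.01, the same as that of all genes, with 22 positive and 21 negative log2 fold changes. Shifting the arrays to a common median moved the median of all genes from 0.01 to −0.10 and that of the members likewise to −0.10, so that small differences in this comparison have no settled sign. The genes called then split into 320 higher and 134 lower, against 382 and 87. With control 2, control 3 or any 1 non-malignant array left out Cd2 alone was called, and 4 members were called without tumor 1.

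Set against the non-malignant samples, the tumors had 6 members lower (Cd247, Rasgrp1, Prkcq, Sla, Cbl and Dgkz) and Fyn higher, 16.3% of the members beside 4.23% of all genes (1.53% higher and 2.7% lower). The median was −0.58, beside 0.03 over all genes, and 37 of 43 members had a negative log2 fold change. In 19 members every tumor lay below every non-malignant array and in 1 above, beside 14.8% and 12.3% of all genes (27.1% in either direction). An unadjusted p under 0.05 was found in 22 members, beside 25.9% of all genes. These calls were the least stable of the 3 comparisons. By limma 0 members passed when the near-identical non-malignant arrays were averaged into 1 sample (19 at an unadjusted p under 0.05), without any 1 non-malignant array (21, 18 and 20) or without control 3 (23). Without control 1, control 2, tumor 2 or tumor 3 the count was 2, 3, 1 and 1, and without tumor 1 it was 30. The 3 comparisons share arrays in pairs, so their counts are not independent of one another.

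**Figure D1:**
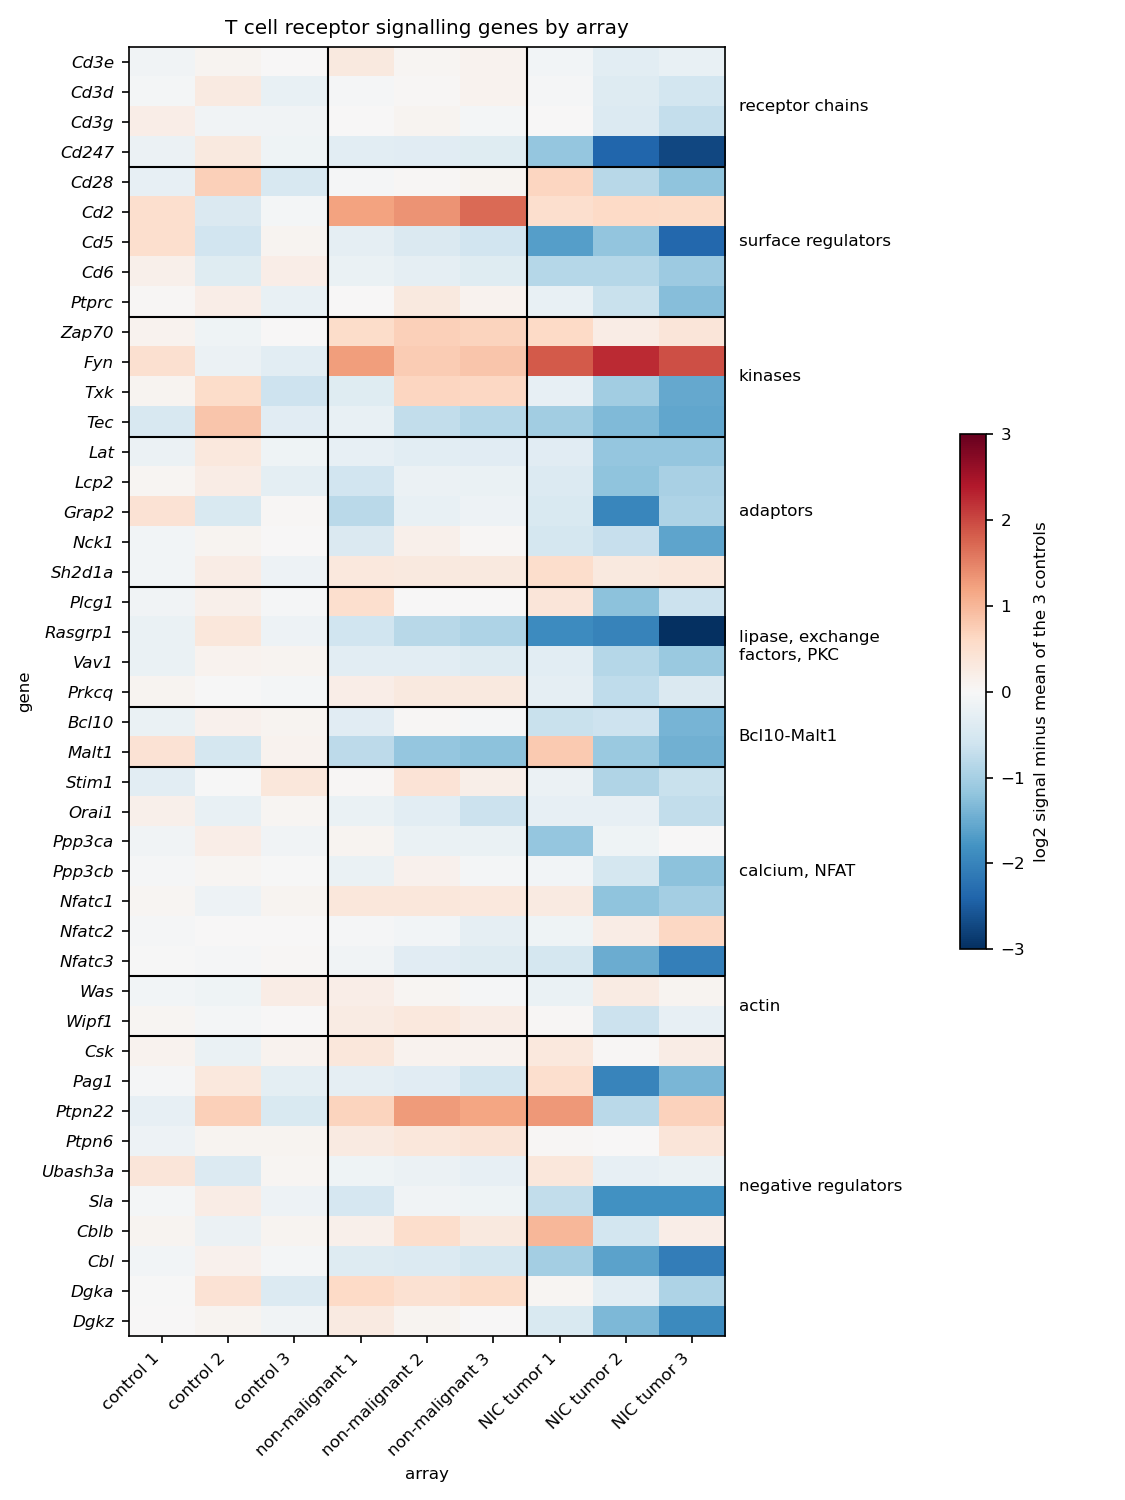
Each cell is the log2 signal of 1 member on 1 array minus the mean of the 3 controls, with red above and blue below the controls and the members in order of signalling step. Blue gathers on tumor arrays 2 and 3, where 33 and 31 of the 43 members lay below all 3 controls, against 21 on tumor array 1.

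The fall was carried mostly by tumors 2 and 3. On tumor arrays 1, 2 and 3, 48.8%, 76.7% and 72.1% of the members lay below all 3 controls, beside 32.4%, 27.5% and 36.4% of all genes. The median of the 43 members relative to the control mean was −0.17, −0.77 and −0.94 on these arrays, −0.05, 0.04 and −0.04 on the non-malignant arrays and −0.03, 0.09 and −0.04 on the controls. Tumor array 3 also had the least spread of values (SD 1.97), and the part of this in its median was not tested. With quantile normalization the members' median for tumors against controls was −0.48, beside 0.11 over all genes. With a common median it was −0.61, beside 0.03. Tumor 1 was the highest of the 3 tumors in 33 of 43 members (76.7%) and in 30% of all genes tested. T lineage markers that are no members were also lower in the tumors: of 8 such genes 6 fell against controls (Thy1, Bcl11b, Cd4, Cd8b1, Rag1 and Rag2), with a median of −1.69, and the log2 of their summed signal was 15.44 to 15.77 in controls, 15.19 to 15.28 in non-malignant samples and 13.27 to 14.61 in tumors. Rag1 and Rag2 were called in every leave-one-out fit, Thy1, Cd4 and Cd8b1 not without any 1 control, and Bcl11b not without control 2, control 3 or tumor 2. In the non-malignant samples the median of these 8 genes was −0.44, where limma called 0 of them and 1 had an unadjusted p under 0.05, beside 0.01 for the members. Ptcra, the pre-TCR alpha chain gene, ran against the other 7 there, at 11.65 to 12.19 against 8.35 to 8.91 in controls (log2 fold change 3.27, adjusted p = 0.0557), and it stood at 10.30, 7.39 and 6.39 in tumors, a fall from the non-malignant samples (log2 fold change −3.84, adjusted p = 0.0336). That call ended without any 1 array other than control 2 or tumor 1. The part of such shifts in the members' values was not tested.

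**Figure D2:**
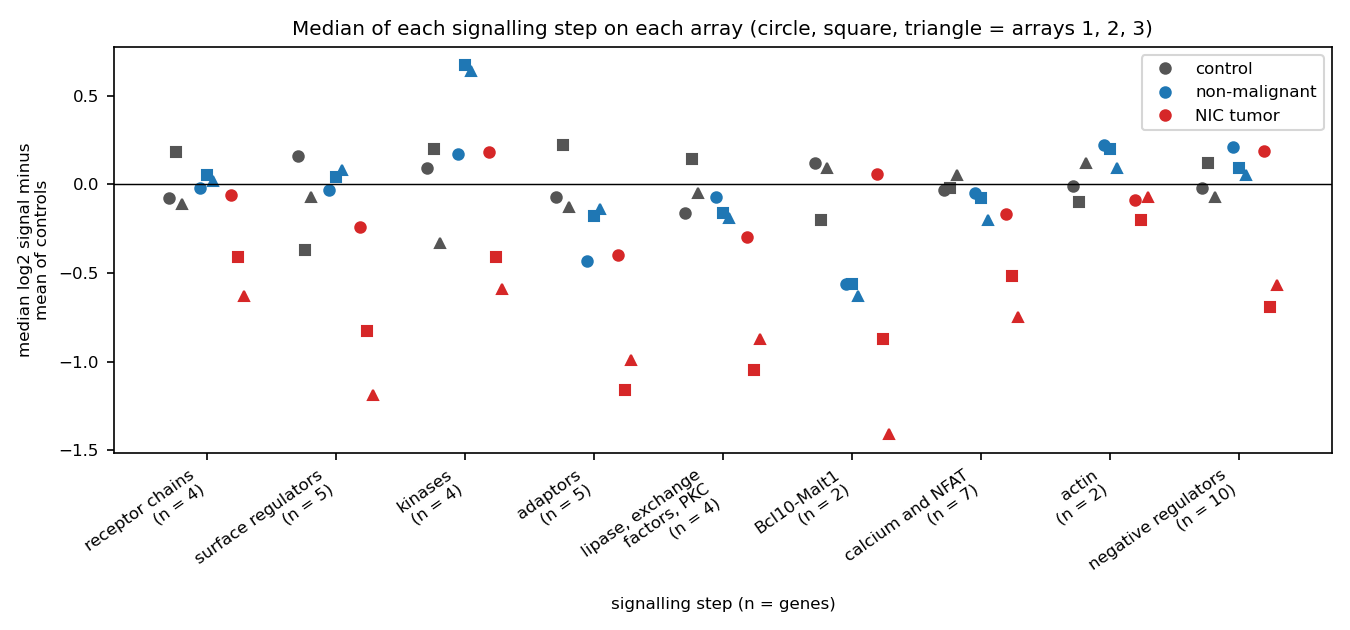
Each point is the median log2 signal of the members of 1 signalling step on 1 array, minus the mean of the 3 controls (n is the number of genes in the step). Tumor arrays 2 and 3 lie below 0 at every step, between −1.16 and −0.20 and between −1.41 and −0.07, whereas tumor array 1 lies between −0.40 and 0.19.

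Among the chains of the receptor complex, the zeta chain gene fell in the tumors while the 3 CD3 genes did not pass. Cd3e, which encodes the epsilon chain shared by both CD3 dimers, stood at 11.97, 12.16 and 12.10 on control arrays 1, 2 and 3, at 12.36, 12.13 and 12.19 on the non-malignant arrays and at 11.99, 11.76 and 11.86 on the tumor arrays. Tumors and controls overlapped, and the log2 fold change was −0.21 (95% interval −0.47 to 0.05, adjusted p = 0.247). Cd3d, the delta chain, stood at 12.92, 13.26 and 12.76 in controls, 12.94, 13.02 and 13.08 in non-malignant samples and 12.95, 12.59 and 12.42 in tumors. Its log2 fold change in the tumors was −0.33 (95% interval −0.69 to 0.03, adjusted p = 0.192). Cd3g, the gamma chain, stood at 12.39, 12.10 and 12.10, then 12.21, 12.27 and 12.14, then 12.22, 11.78 and 11.49 in the same order. For Cd3g the tumors differed from controls by −0.37 (95% interval −0.77 to 0.02, adjusted p = 0.178). The non-malignant samples differed from controls by 0.15, 0.03 and 0.01 in Cd3e, Cd3d and Cd3g. All 3 genes stood highest among the tumors on array 1, and without that array Cd3d and Cd3g passed against controls.

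Cd247, whose zeta chain carries most of the signalling motifs of the complex, stood at 11.72, 12.18 and 11.77 on the control arrays, 11.57, 11.55 and 11.52 on the non-malignant arrays and 10.72, 9.52 and 9.16 on the tumor arrays. The 3 groups did not overlap, with controls highest and tumors lowest. From 11.89 ± 0.25 in controls (SD, n = 3, as for every mean here) it fell to 9.80 ± 0.82 in tumors, which was 4.26-fold lower (log2 fold change −2.09 ± 0.34 SE, limma adjusted p = 0.00489). It was called in all 19 alternative settings, at −2.55 to −1.77 with 1 array left out, but at −0.92 by the mean of its 4 probe sets (adjusted p = 0.0304). Its other 3 probe sets gave −1.18, −0.35 and −0.06, the last of them above the 40th percentile on 1 array only. The tumors were also 3.36-fold below the non-malignant mean of 11.55 ± 0.02 (log2 fold change −1.75, adjusted p = 0.0277). That call ended without control 1, control 3, any 1 non-malignant array, tumor 2 or tumor 3, and by the mean of the probe sets (−0.89, adjusted p = 0.068). The non-malignant samples differed from controls by −0.34 (adjusted p = 0.837). In the order given above, the other 3 probe sets gave −0.32, 0.57 and −0.03 there. The probe set at 0.57 stood at 7.80, 7.34 and 7.26 in non-malignant samples and at 6.83, 7.11 and 6.75 in controls. The sign of this small difference therefore depends on the probe set. The main probe set of Cd247 was also taken against the mean of the 3 CD3 genes on the same array, with the control mean set to 0. It then stood at −0.18, 0.20 and −0.02 in controls, −0.40, −0.39 and −0.42 in non-malignant samples and −1.14, −1.99 and −2.23 in tumors. The other probe sets of Cd247 were not set against the CD3 genes in this way. Of the promoters shown above, that of Cd247 lies on another chromosome than the CD3 genes, which neighbour each other on chromosome 9.

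**Figure D3:**
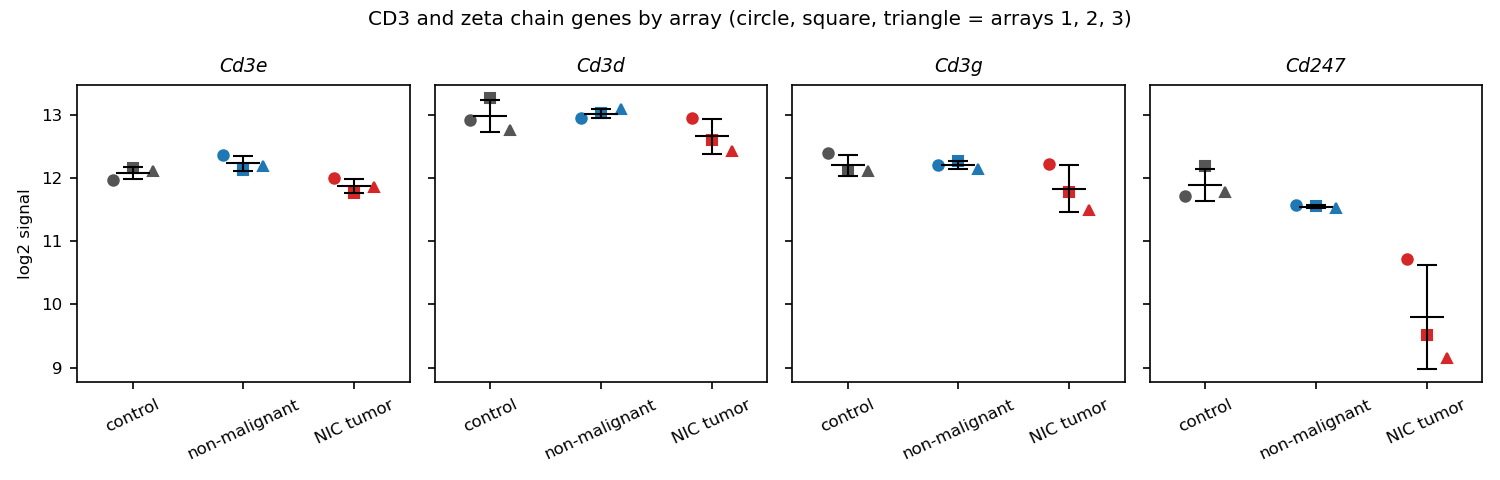
Log2 signal of the CD3 and zeta chain genes on each array (points) with the mean and SD of each group of 3. Over the 9 arrays Cd3e runs from 11.76 to 12.36, Cd3d from 12.42 to 13.26 and Cd3g from 11.49 to 12.39, whereas Cd247 runs from 9.16 in a tumor to 12.18 in a control.

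The surface regulators split by group: Cd2 rose in the non-malignant samples and Cd5 and Cd6 fell in the tumors. Cd2, an adhesion and costimulatory receptor, stood at 10.94, 10.02 and 10.38 in controls, 11.65, 11.80 and 12.15 in non-malignant samples and 10.96, 11.04 and 11.03 in tumors. All non-malignant arrays lay above all others. From 10.45 ± 0.46 it rose to 11.87 ± 0.25, 2.68-fold (log2 fold change 1.42 ± 0.23 SE, adjusted p = 0.0072), and it was called in all 19 alternatives (1.21 to 1.67 with 1 array left out). In the tumors it was 0.56 above controls (adjusted p = 0.122) and 0.86 below the non-malignant samples on the log2 scale (log2 fold change −0.86, adjusted p = 0.0635). Among 6 markers of NK cells, which also carry CD2, 3 genes of cytotoxic granules rose in the non-malignant samples (Prf1 3.80, Nkg7 1.30 and Gzmb 1.08), whereas the receptor gene Ncr1 (0.02) and Tyrobp (0.17) did not pass. In the tumors Prf1 rose (2.28) and Nkg7, Gzmb, Ncr1 and Tyrobp did not pass (−0.34, 0.22, −0.02 and −0.06). Over the alternatives that left no array out, Prf1, which has 2 probe sets, differed from controls by 1.87 to 3.81 in the non-malignant samples and by 1.23 to 2.49 in the tumors. The log2 of the summed signal of the 6 was 8.04 to 8.27 in controls, 10.06 to 10.20 in non-malignant samples and 8.55 to 9.22 in tumors. Klrd1 lay under the 40th percentile on all 9 arrays, and the part of such cells in the Cd2 value was not tested.

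Cd5, a receptor that dampens TCR signals and follows their strength in thymocytes, stood at 11.26, 10.17 and 10.83 in controls, 10.49, 10.31 and 10.19 in non-malignant samples and 9.11, 9.58 and 8.39 in tumors. It fell 3.31-fold in the tumors against controls (10.75 ± 0.55 to 9.03 ± 0.60, log2 fold change −1.73 ± 0.33 SE, adjusted p = 0.0102). Cd6, its paralog, stood at 11.00, 10.47 and 11.04 in controls, 10.64, 10.56 and 10.47 in non-malignant samples and 9.99, 9.99 and 9.74 in tumors. It fell 1.9-fold (10.84 ± 0.32 to 9.91 ± 0.15, log2 fold change −0.93 ± 0.18 SE, adjusted p = 0.0105). Both genes had every tumor below every other array, and both calls against controls were kept in all 19 alternatives. Against the non-malignant samples Cd5 and Cd6 did not pass (−1.31, adjusted p = 0.0588, and −0.65, adjusted p = 0.0729). The other 2 surface members did not pass in any comparison. Ptprc, the phosphatase CD45 that releases Src kinases from inhibition, had every tumor below every control (−0.73, adjusted p = 0.0613). The gap was narrow, with the highest tumor at 12.66 and the lowest control at 12.67. Cd28, the costimulatory receptor, overlapped (−0.46, adjusted p = 0.508).

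Fyn and Tec moved in opposite directions among the proximal kinases. Fyn, a Src family kinase that acts at the CD3 motifs, stood at 10.84, 10.20 and 10.06 in controls, 11.62, 11.12 and 11.20 in non-malignant samples and 12.21, 12.61 and 12.30 in tumors. The groups did not overlap, with tumors highest and controls lowest. From 10.37 ± 0.41 in controls Fyn rose 4.02-fold to 12.37 ± 0.21 in tumors (log2 fold change 2.01 ± 0.23 SE, adjusted p = 0.00102), a call kept in all 19 alternatives (1.85 to 2.24 with 1 array left out). The non-malignant mean of 11.31 ± 0.27 lay 0.95 above controls without passing (adjusted p = 0.0555), and it passed without control 1 or tumor 1. The tumors were 2.08-fold above the non-malignant samples (log2 fold change 1.06, adjusted p = 0.0373), a call that ended without control 2, control 3, any 1 non-malignant array, tumor 2 or tumor 3. Its second probe set gave 1.23 for non-malignant samples against controls, 1.66 in the tumors on the same basis, and 0.43 when tumors were set against non-malignant samples. By the mean of its probe sets Fyn passed by limma in the non-malignant samples against controls (1.09, adjusted p = 0.0143). Tumors against non-malignant samples then did not pass (0.74, adjusted p = 0.0657).

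Zap70, the kinase that docks on the phosphorylated chains, stood at 10.79, 10.54 and 10.70 in controls, 11.23, 11.38 and 11.35 in non-malignant samples and 11.27, 10.89 and 11.03 in tumors. Every array of the other 2 groups lay above every control. It rose 1.56-fold in the non-malignant samples (10.67 ± 0.13 to 11.32 ± 0.08, log2 fold change 0.64 ± 0.14 SE, adjusted p = 0.0393) and was 0.39 higher in tumors without passing (adjusted p = 0.096). The first call did not survive the loss of any control or non-malignant array, although the log2 fold change stayed at 0.57 to 0.70. Its other 2 probe sets gave 0.51 and −0.09, and the mean of all 3 gave 0.36 (adjusted p = 0.206). Tec, a kinase that helps activate PLC-gamma1, stood at 8.29, 9.59 and 8.42 in controls, 8.55, 8.04 and 7.91 in non-malignant samples and 7.73, 7.44 and 7.21 in tumors. It fell 2.48-fold in the tumors against controls (log2 fold change −1.31 ± 0.34 SE, adjusted p = 0.0299), with control 2 far above the other controls. The Tec call ended without control 2, control 3, non-malignant 2, tumor 2 or tumor 3, and the log2 fold change was −0.89 to −1.55 with 1 array left out. Its relative Txk did not pass (−0.94, adjusted p = 0.15).

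Of the 5 adaptors 3 fell in the tumors against controls, 60% beside 32.6% of all members and 7.19% of all genes. None passed by limma in the other comparisons. An unadjusted p under 0.05 was found in 0 for non-malignant samples against controls and in 3 for tumors against non-malignant samples. Lat, the membrane scaffold that Zap70 phosphorylates, stood at 12.69, 13.20 and 12.74 in controls, 12.62, 12.56 and 12.53 in non-malignant samples and 12.54, 11.71 and 11.71 in tumors. Both other groups lay below all controls, and the fall in tumors was 1.85-fold (log2 fold change −0.89 ± 0.22 SE, adjusted p = 0.0266). Lcp2, which encodes SLP-76, stood at 11.07, 11.24 and 10.73 in controls, 10.45, 10.84 and 10.82 in non-malignant samples and 10.61, 9.81 and 10.03 in tumors. It fell 1.82-fold (log2 fold change −0.86 ± 0.23 SE, adjusted p = 0.034), and all tumors lay below all controls. Nck1, an adaptor that links SLP-76 to actin, stood at 8.77, 8.94 and 8.86 in controls, 8.43, 9.01 and 8.89 in non-malignant samples and 8.32, 8.16 and 7.27 in tumors. The fall of Nck1 was 1.92-fold (log2 fold change −0.94 ± 0.28 SE, adjusted p = 0.0479), and its tumors lay below every other array. These 3 calls were fragile: that of Lat ended without any 1 control, tumor 2 or tumor 3, that of Lcp2 without control 1, control 2, non-malignant 2 or 3, tumor 2 or tumor 3, and that of Nck1 without any 1 array other than tumor 1, its log2 fold change being −0.62 without tumor 3. Grap2 (Gads), which bridges Lat and SLP-76, was 1.12 lower on the log2 scale without passing (log2 fold change −1.12, adjusted p = 0.0756). Sh2d1a, the adaptor SAP of the SLAM receptors, stood above all controls on every non-malignant and tumor array, at 0.30 (adjusted p = 0.416) and 0.39 (adjusted p = 0.0923).

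At the step of lipase, exchange factors and protein kinase C, the Ras exchange factor Rasgrp1 had the largest fall of any member in the tumors. Rasgrp1, which diacylglycerol recruits to activate Ras, stood at 11.13, 11.68 and 11.19 in controls, 10.74, 10.50 and 10.41 in non-malignant samples and 9.44, 9.34 and 8.35 in tumors. The 3 groups did not overlap. From 11.33 ± 0.30 it fell 4.9-fold to 9.04 ± 0.60 in tumors (log2 fold change −2.29 ± 0.29 SE, adjusted p = 0.00146), kept in all 19 alternatives (−2.49 to −1.95 with 1 array left out). Its 4 probe sets gave −2.29, −2.47, −1.56 and −0.76. The non-malignant mean of 10.55 ± 0.17 was 0.78 below controls on the log2 scale without passing (log2 fold change −0.78, adjusted p = 0.236, called without tumor 3). The tumors were 2.84-fold below the non-malignant samples (log2 fold change −1.51, adjusted p = 0.0269), a call lost without control 3 or any 1 non-malignant array. It was also lost by the mean of the probe sets (−1.22, limma adjusted p = 0.082).

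Vav1, the exchange factor for Rac that acts on actin and calcium, stood at 8.58, 8.90 and 8.87 in controls, 8.46, 8.46 and 8.39 in non-malignant samples and 8.46, 7.93 and 7.68 in tumors. All arrays of both other groups lay below all controls. Its 1.7-fold fall in the tumors (log2 fold change −0.76 ± 0.21 SE, adjusted p = 0.039) lost the call without any 1 array other than tumor 1. Prkcq, the protein kinase C theta that leads to NF-kappaB, stood at 10.81, 10.72 and 10.68 in controls, 10.93, 11.02 and 11.03 in non-malignant samples and 10.47, 9.97 and 10.30 in tumors. The non-malignant arrays were highest and the tumors lowest, with no overlap. Prkcq passed between tumors and non-malignant samples, 1.68-fold lower (log2 fold change −0.75 ± 0.15 SE, adjusted p = 0.0345), and not against controls (−0.49, adjusted p = 0.0602). The call ended without any 1 array other than control 2 or tumor 1. Plcg1, the phospholipase itself, did not pass (−0.51, adjusted p = 0.337).

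Bcl10 and Malt1 form, with a scaffold protein, the complex that carries the protein kinase C signal to NF-kappaB. Bcl10 stood at 9.78, 10.11 and 10.06 in controls, 9.65, 10.02 and 9.94 in non-malignant samples and 9.32, 9.36 and 8.60 in tumors. It fell 1.85-fold in the tumors against controls (log2 fold change −0.89 ± 0.23 SE, adjusted p = 0.0296), with tumors below every other array, and the call ended without any 1 control, non-malignant 2 or non-malignant 3 and by the mean of its probe sets (−0.57, adjusted p = 0.0547). Malt1 was lower on all non-malignant arrays than on any control without passing (−1.06, adjusted p = 0.429), and its tumors spread from 6.24 to 8.46 on either side of the controls (7.15 to 8.12).

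**Figure D4:**
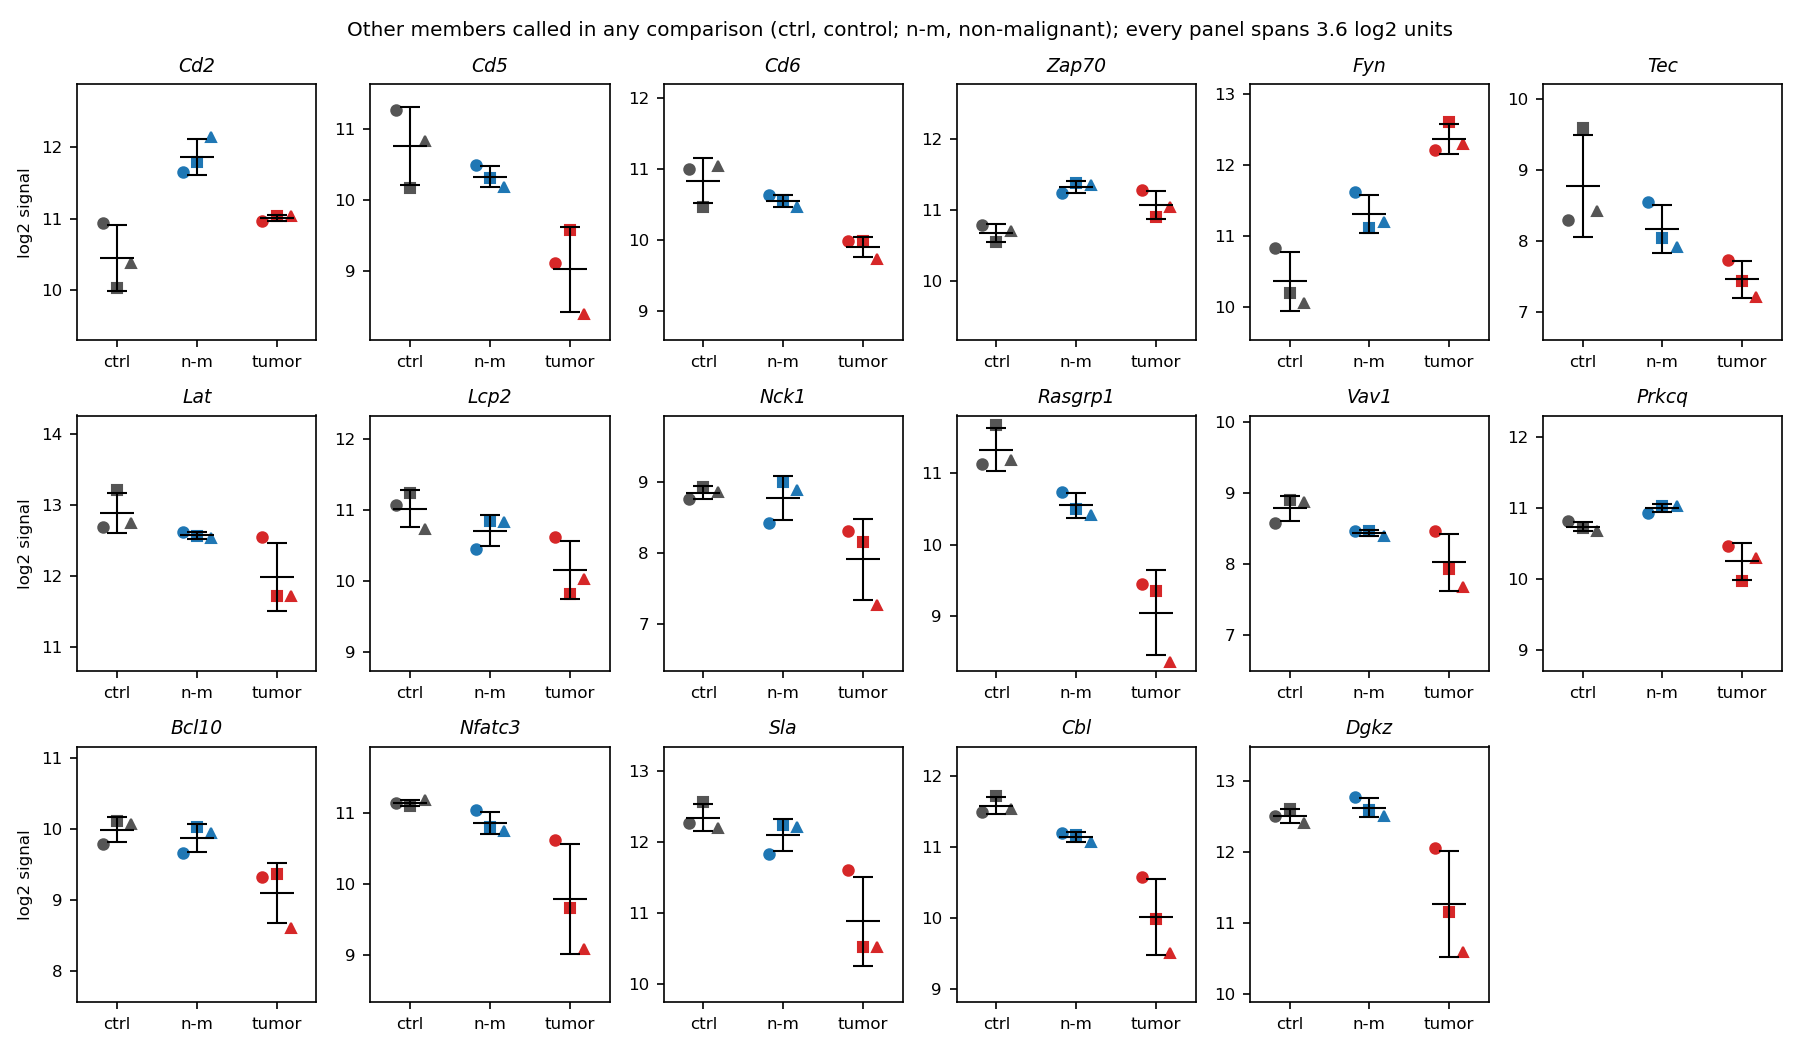
Log2 signal on each array (points) with the mean and SD of each group of 3, for the members called in any comparison other than Cd247; every panel spans 3.6 log2 units. Fyn climbs from controls (10.06 to 10.84) to tumors (12.21 to 12.61), Cd2 peaks in the non-malignant samples (11.65 to 12.15), and Rasgrp1 descends from controls (11.13 to 11.68) to tumors (8.35 to 9.44).

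On the calcium branch 1 of 7 members fell in the tumors against controls, 14.3% beside 32.6% of all members and 7.19% of all genes. By limma 0 passed in the other comparisons (0 and 3 at an unadjusted p under 0.05). Nfatc3, a calcium-activated transcription factor prominent in thymocytes, stood at 11.13, 11.10 and 11.18 in controls, 11.03, 10.80 and 10.74 in non-malignant samples and 10.62, 9.66 and 9.08 in tumors. The groups did not overlap and descended in this order. It fell 2.54-fold in the tumors against controls (11.13 ± 0.04 to 9.79 ± 0.78, log2 fold change −1.35 ± 0.32 SE, adjusted p = 0.0217), and its second probe set gave −1.89. The call ended without any 1 control or tumor 2. Its relatives Nfatc1 and Nfatc2 did not pass, at −0.65 (adjusted p = 0.209) and 0.24 (adjusted p = 0.416). Stim1, the calcium sensor of the endoplasmic reticulum, and Orai1, the channel it opens, stood at −0.58 (adjusted p = 0.131) and −0.41 (adjusted p = 0.205). The calcineurin subunit genes Ppp3ca and Ppp3cb, whose phosphatase activates NFAT, stood at −0.43 (adjusted p = 0.314) and −0.61 (adjusted p = 0.138). Of these 6, Orai1 and Ppp3cb had every tumor below every control, as did 14.3% of all genes. The gaps were narrow, with the highest tumor at 8.76 and the lowest control at 8.78 in Orai1, and 10.14 and 10.19 in Ppp3cb. Further probe sets of Ppp3ca, in which every tumor lay below every control, gave −1.30 and −0.55.

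Neither actin gene passed in any comparison (by limma, 1 of the 2 at an unadjusted p under 0.05 between tumors and non-malignant samples and 0 in the others). Was, which encodes the actin nucleation factor WASP, differed by 0.08 in non-malignant samples and 0.04 in tumors against controls. Wipf1, which encodes its partner WIP, differed by 0.27 and −0.28, and all tumors lay below all non-malignant arrays (−0.55, adjusted p = 0.119).

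Of 10 members that restrain the cascade 3 fell in the tumors against controls (Sla, Cbl and Dgkz). This is 30%, beside 32.6% of all members and 7.19% of all genes. The median of the 10 was −0.21, beside −0.58 for all members, with 4 positive and 6 negative log2 fold changes. Sla, Cbl and Dgkz also fell against the non-malignant samples, 30% beside 14% of all members and 2.7% of all genes. Sla, the Src-like adaptor that promotes loss of TCR chains from the surface, stood at 12.27, 12.56 and 12.19 in controls, 11.83, 12.23 and 12.21 in non-malignant samples and 11.60, 10.52 and 10.52 in tumors. It fell 2.75-fold against controls (12.34 ± 0.19 to 10.88 ± 0.62, log2 fold change −1.46 ± 0.27 SE, adjusted p = 0.00943). Cbl, a ubiquitin ligase for activated kinases and chains, stood at 11.49, 11.72 and 11.53 in controls, 11.20, 11.16 and 11.06 in non-malignant samples and 10.57, 9.98 and 9.50 in tumors. It fell 2.96-fold (11.58 ± 0.12 to 10.02 ± 0.53, log2 fold change −1.57 ± 0.23 SE, adjusted p = 0.00358), and its groups descended without overlap. The calls of Sla and Cbl against controls were kept in all 19 alternatives, that of Cbl by its second probe set (−1.18) without tumor 3.

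Dgkz, the diacylglycerol kinase zeta that removes the lipid that recruits Rasgrp1, stood at 12.51, 12.60 and 12.41 in controls, 12.78, 12.59 and 12.51 in non-malignant samples and 12.06, 11.16 and 10.59 in tumors. Its tumors lay below every other array. It fell 2.36-fold against controls (log2 fold change −1.24 ± 0.30 SE, adjusted p = 0.0227), and the call ended without any 1 control or tumor 2. Compared with the non-malignant samples, Sla, Cbl and Dgkz fell by 1.21 (adjusted p = 0.0434), 1.12 (adjusted p = 0.0351) and 1.36 (adjusted p = 0.0403) on the log2 scale. Those 3 calls ended without any 1 array other than tumor 1. By the mean of the probe sets those of Sla and Cbl also ended (−1.33 and −1.06, limma adjusted p = 0.0593 and 0.0958).

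The remaining 7 restraining genes did not pass in any comparison. Against controls the tumors differed by 0.19 in Csk, the kinase that inhibits Src kinases, 0.39 in Ptpn22 and 0.14 in Ptpn6, both phosphatases of proximal kinases, −0.03 in Ubash3a, 0.21 in the ubiquitin ligase gene Cblb and −0.39 in Dgka, the alpha form of the diacylglycerol kinase. Pag1, the membrane anchor of Csk, differed by −0.95, but its other 3 probe sets gave 0.49, 0.03 and 0.76, so its direction depends on the probe set. In the non-malignant samples Ptpn22 stood 1.04 above controls with overlap (adjusted p = 0.43). Cblb, Dgka and Ptpn6, 3 of the 10 restraining genes, lay above all controls on every non-malignant array, at 0.32, 0.53 and 0.34, without passing. Among all genes 17% did so.

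**Figure D5:**
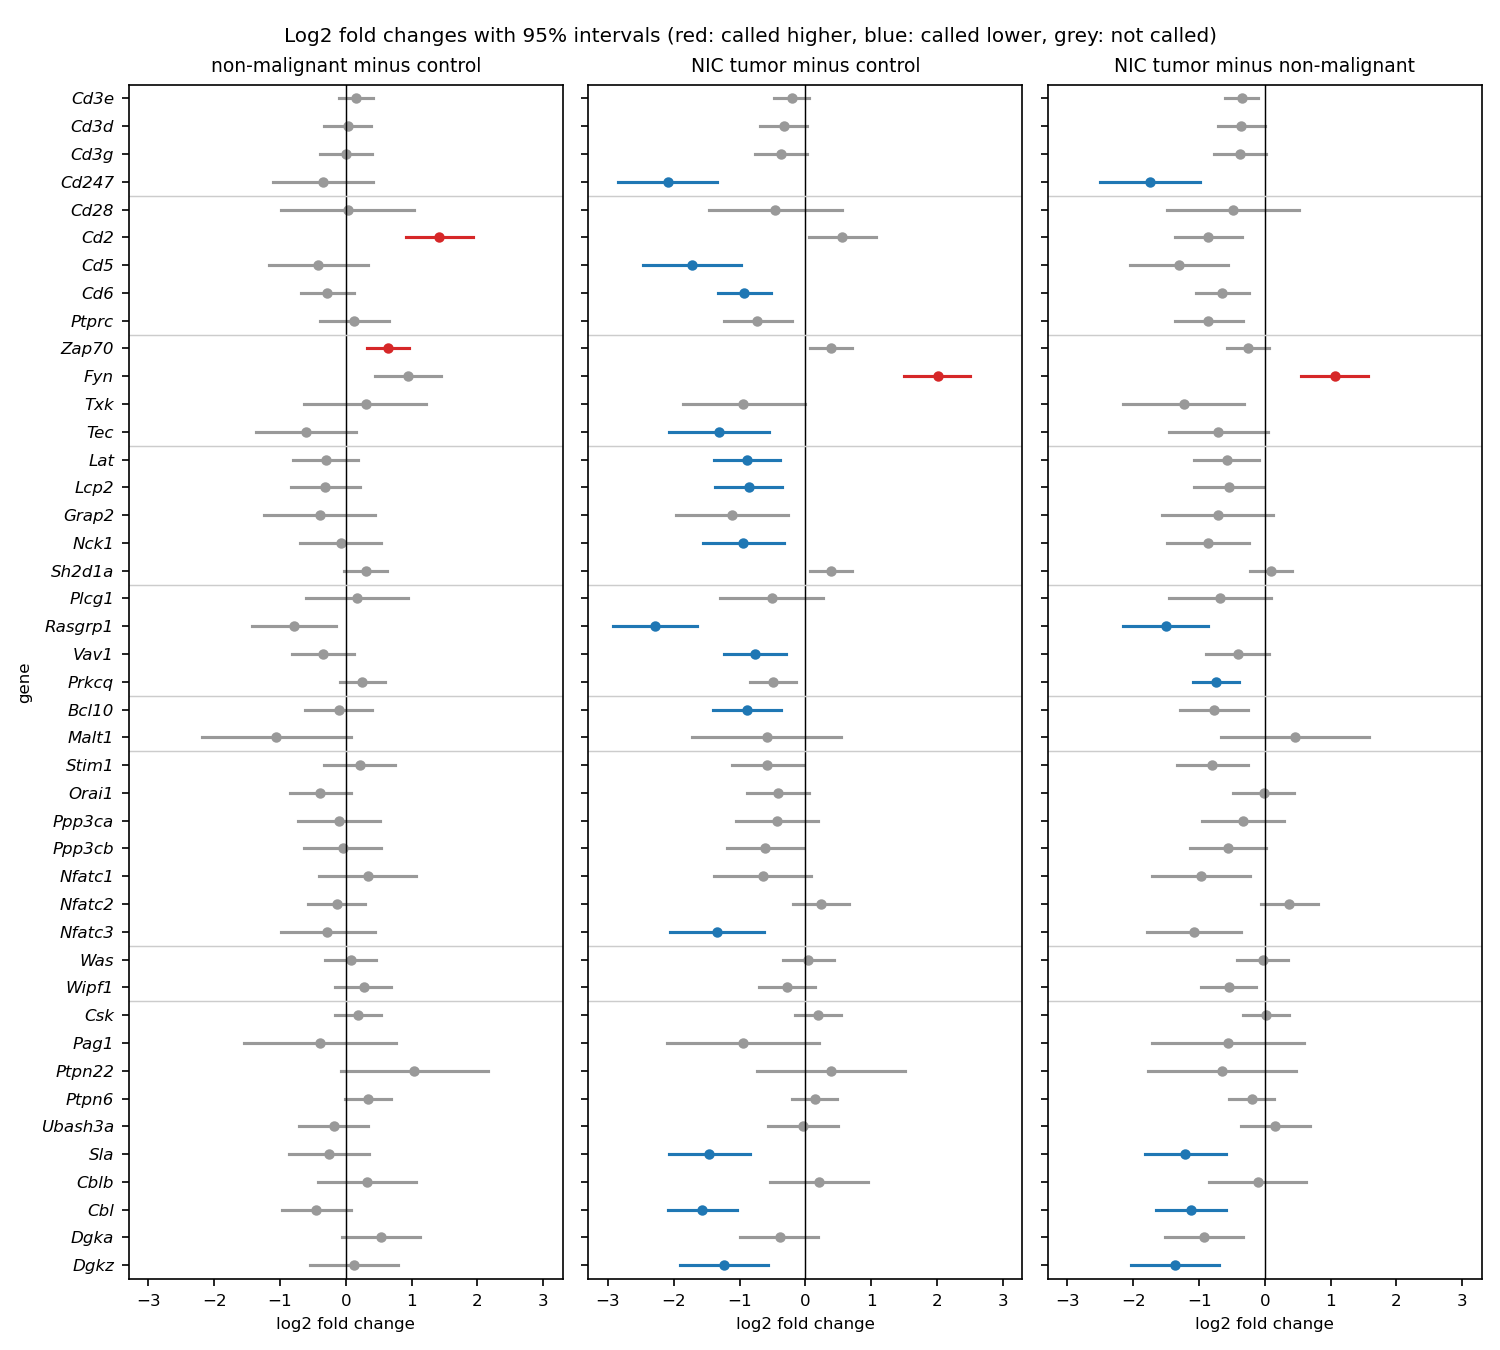
Log2 fold change of each member with its 95% interval in the 3 comparisons (red, called higher; blue, called lower; grey, not called), in order of signalling step. Against controls the tumors had 14 members called lower and 1 higher, and the non-malignant samples 2 called higher.

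An ordered descent from controls over non-malignant samples to tumors, with no overlap between neighbours, was found in 4 of the 43 members (9.3%), Cd247, Rasgrp1, Nfatc3 and Cbl, and in 1.57% of all genes tested, each gene read from its main probe set. The opposite order was found in Fyn alone (2.33%) and in 2.73% of all genes. Among the 10 further probe sets of these 5 genes the same order was found in 2, 1 of 3 of Rasgrp1 and 1 of 2 of Cbl, and in none of those of Cd247 (3), Nfatc3 (1) and Fyn (1). By the main probe sets the first step, from controls to non-malignant samples, passed in none of the 5 genes. That of Fyn passed by the mean of its probe sets (log2 fold change 1.09, limma adjusted p = 0.0143). Where a called member had further probe sets, 21 of 21 such probe sets over 11 members had the direction of the main one for tumors against controls, and 13 of 13 for tumors against non-malignant samples. For non-malignant samples against controls 1 of 2 did, both being probe sets of Zap70.

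Of 42 further genes of the pathway with a probe set of their own, 41 were tested. In the non-malignant samples 2 rose and none fell (4.88% called). Lax1, a membrane adaptor related to Lat, rose by 2.33 ± 0.41 SE (adjusted p = 0.0124), a call lost without control 3, non-malignant 2 or non-malignant 3. Ppp3cc, another calcineurin catalytic subunit gene, stood at 4.56, 4.48 and 4.36 in controls, under the 40th percentile on all 3, and at 6.09, 6.97 and 6.78 in non-malignant samples. Set against that percentile it rose by at least 1.42 on the log2 scale, a bound that was not itself tested. The log2 fold change from the measured values was 2.15 (limma adjusted p = 0.000643), and Ppp3cc was called in every leave-one-out fit. Without non-malignant 2 or 3 this probe set gave 1.97 and 2.06, but another probe set of Ppp3cc then had the highest mean and stood for the gene in those fits, at 1.06 and 1.03, below the bound given for the first. In the tumors 9 fell and 2 rose against controls (26.8%), with a median of −0.33. Those with the smallest adjusted p were Sit1, a membrane adaptor that dampens TCR signals (−1.90 ± 0.31 SE, adjusted p = 0.0055), Themis, which tunes TCR signals in thymocyte selection (−1.19 ± 0.21 SE, adjusted p = 0.00776), and Sos1, a Ras exchange factor (−0.92 ± 0.18 SE, adjusted p = 0.0102). All 3 were called in every leave-one-out fit, but Sos1 stood at 0.00 by the mean of its probe sets. Between tumors and non-malignant samples 5 fell and none rose (12.2%), led by Sos1 (−1.05, adjusted p = 0.0183), Ppp3cc (−1.18, adjusted p = 0.0251) and Fyb (−1.09, adjusted p = 0.0321), the adaptor ADAP. These calls ended without non-malignant 2 or 3, that of Ppp3cc also without tumor 3, and that of Fyb also without control 1, control 3, non-malignant 1, tumor 2 or tumor 3. By the mean of its probe sets Sos1 was not called here either, at −0.08.

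Markers of other cells also differed between the groups. The log2 of the summed signal of 12 myeloid markers was 9.37 to 9.54 in controls, 10.30 to 10.48 in non-malignant samples and 9.77 to 11.04 in tumors. Ctss rose in both (2.34 and 2.51), and the first was not called when control 3 or non-malignant 2 or 3 was left out. In the non-malignant samples S100a8 and S100a9 stood at 2.76 and 2.61 without passing (limma adjusted p = 0.0837 and 0.117). The median of the 12 was 0.14 there, and Lyz2, Csf1r, Cd68, Elane and Cd14 differed by 0.03 to 0.09. For 5 erythroid markers the log2 of the summed signal was 7.94 to 8.06, 8.73 to 8.95 and 8.58 to 10.46, highest on tumor 2 (Slc4a1 at 9.18 and Alas2 at 8.56). By limma none of the 4 tested was called. An unadjusted p under 0.05 was found in 4 for tumors against controls and in 2 for non-malignant samples against controls. Hba-a1 lay under the 40th percentile on all 9 arrays. For 8 thymic stroma markers the sum was 9.64 to 9.91, 9.73 to 9.87 and 9.85 to 10.51, and Pdgfrb rose in the tumors (1.40, not called without control 2). For 7 B lineage markers it was 12.44 to 12.78, 12.40 to 13.10 and 11.39 to 12.22, and Cd79b and Ighm fell in the tumors (−1.38 and −0.89), calls that ended without any 1 control, non-malignant 2, non-malignant 3 or tumor 2, that of Cd79b also without tumor 1 and that of Ighm without tumor 3, while Ighm stood at 0.10 by the mean of its probe sets. This sum mostly followed Ighm, which stood at 11.23 to 13.03, whereas no other of the 7 exceeded 8.33. In the non-malignant samples Cd79b lay below all controls without passing (−1.49, limma adjusted p = 0.0966). For 6 antigen-presenting cell markers the sum was 9.40 to 9.64, 9.61 to 9.92 and 9.53 to 10.09, with 0 called by limma (0 and 1 at an unadjusted p under 0.05 against controls). The part of these cells in the members' values was not tested.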

How the data were processed

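RNA of sorted cells was isolated with TRIZOL and RNeasy columns and labelled as biotinylated cRNA, per the labels' protocols. The deposited table holds log2 values that the authors normalized between arrays; background correction, normalization and summarization are not given in the sources used here, and base 2 was inferred from the range of the values (2.68 to 14.57). Of 45101 probe sets, 34945 carry 1 gene symbol, 932 several and 9160 none, and 64 are Affymetrix controls; names came from the platform annotation, updated through Entrez ID. Genes whose probe set exceeded the 40th percentile of its array (5.14 to 5.30) on 3 or more arrays were tested, 13288 in number. A limma model (version 3.58.1, R 4.3.3; tables in Python 3.11.15 with pandas 2.3.3) with 1 mean per group and a variance trend took in all 9 arrays, with 6 residual and 3.6 prior degrees of freedom. Tests were two-sided, p-values were adjusted by Benjamini-Hochberg over the 13288 genes, and a gene was called at an adjusted p under 0.05. These scripts were also tested on simulated arrays with known changes, which checks the code and not whether the model suits these arrays. With 3 arrays per group the smallest two-sided exact permutation p is 0.1, and so few arrays limit the precision.

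The members, signalling steps and other lists were chosen with earlier results of these data known. Values on every array are given for called members and for the CD3 chains, Cd247, Zap70 and Lat; of the other pathway genes the 3 called with the smallest adjusted p per comparison are named, and of markers those called and those with the highest level. The 19 alternatives were quantile normalization, a common median, no filter, a filter at the 60th percentile, the mean of a gene's probe sets, no variance trend, array weights, only the 2 groups compared, a replicate block, non-malignant arrays 2 and 3 averaged, and each array left out. Some listed genes were not analysed here.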

Additional observations from a re-analysis of the deposited data

How the results depend on the processing

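Of the 24 called member fold changes, 8 kept their call and direction in all 19 alternatives: Cd2 in the non-malignant samples, and Cd247, Cd5, Cd6, Fyn, Rasgrp1, Sla and Cbl in the tumors, both against controls. No called member changed its sign under any alternative, and over these alternatives the called fold changes kept the call in 308 instances and lost it in 148. Ighm, a marker and no member, turned from −0.89 to 0.10 by the mean of its probe sets.

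For non-malignant samples against controls (2 members, 469 genes), the members called were 1 with a common median, 1 without a filter, 12 with array weights, 5 with only the 2 groups in the fit, 1 with non-malignant arrays 2 and 3 averaged and 1 to 4 with 1 array left out; all genes called were 2420 with weights, 1121 with 2 groups, 206 with the averaged arrays and 203 to 709 with 1 array left out. For tumors against controls (15 members, 2084 genes), the members were 28 with weights, 7 with 2 groups and 7 to 28 with 1 array left out, and the genes 4884, 842 and 922 to 4117. For tumors against non-malignant samples (7 members, 562 genes), the members were 2 by the mean of the probe sets, 35 with weights, 0 with 2 groups (limma; 23 at an unadjusted p under 0.05), 0 with the averaged arrays (19) and 0 to 30 with 1 array left out, and the genes 5698 with weights, 110 with 2 groups, 66 with the averaged arrays and 57 to 3407 with 1 array left out. The cause of these shifts was not tested.

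The labels state no pairing by replicate number. Over all genes, deviations from the group means correlated at −0.05 to 0.22 between arrays of the same number. Between arrays of different groups and numbers they correlated at −0.26 to 0.21. With 3 arrays per group such values cannot decide whether the arrays were paired. With the number as a block, 1, 13 and 4 members and 399, 1916 and 287 genes were called in the 3 comparisons in the order above. Every member was above the 40th percentile on all 9 arrays, but that is a rank and not a measured background, and Ppp3ca was as low as 5.15 on tumor 1, within the range of this limit over the arrays (5.14 to 5.30); 3 arrays per group limit the precision of each value. In 5 members (Grap2, Ppp3ca, Nfatc1, Ptpn6 and Cbl) leaving out an array passed the choice of probe set to another.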
